A study of Mus musculus with 8 samples.

Results

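Lgr4, Lgr5, Lgr6, Sox9, Nfatc1, Tcf7l1, Lrig1, Gata6 and Plet1 mark the outer root sheath and the stem cell compartments of the hair follicle, and their transcripts were compared in skin of control and Pparg-null mouse embryos at E17.5. The 9 genes were taken by name, each through the transcript clusters to which the platform annotation gives exactly 1 gene symbol. All 9 were found, each with 1 cluster, among 19938 genes named in this way, and all 9 were bright enough to be among the 15174 genes tested. The 8 Affymetrix whole-transcript arrays each carried an individual RNA of full-thickness skin, 4 from embryos labelled PPARgamma wildtype, called control here, and 4 from embryos labelled PpargΔ/Δ and PPARgamma null, called labelled-null here, all of the strain Mixed C57BL6/SV129. The labels name no other allele or agent, no driver of the deletion, no deleted part of the gene, and no litter or sex, so p-values measure the spread between these 8 RNAs.

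The outer root sheath is the outermost epithelial layer of the hair follicle and is continuous with the basal layer of the epidermis. In the adult follicle its bulge holds slowly dividing stem cells, and its upper part, the isthmus, junctional zone and infundibulum, holds further progenitors that maintain the sebaceous gland and the follicle opening. Lgr4, Lgr5 and Lgr6 are receptors for R-spondins, secreted proteins that raise the response of a cell to Wnt signals. Sox9, Nfatc1, Tcf7l1 and Gata6 are transcription factors, and Lrig1 and Plet1 are surface proteins of the upper follicle. Skin at this age holds follicles that are still forming, and full-thickness skin averages them with epidermis, dermis and the fat layer below, so a lower value can mean fewer such cells or less RNA per cell, which cannot be told apart.

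The promoters of 5 of the 9 genes, Lgr4, Lgr6, Tcf7l1, Lrig1 and Plet1, were matched by symbol in a RefSeq table of GRCm38.p6 that gives 250 bases before and 50 after each start site. Lgr5 and Sox9 had no window in that table, and windows of Nfatc1 and Gata6 are not reported here. Shown are Lgr6, the member whose groups lay farthest apart, Plet1, the one member above control, and Tcf7l1, the steadiest member. Capitals mark matches to 3 motifs of 6 bases, searched on both strands: CTTTGA and CTTTGT, cores of the site bound by TCF and LEF factors, and AGGTCA, the half-site of PPAR and RXR.
Lgr6, chr1:135105227-135105526, minus strand: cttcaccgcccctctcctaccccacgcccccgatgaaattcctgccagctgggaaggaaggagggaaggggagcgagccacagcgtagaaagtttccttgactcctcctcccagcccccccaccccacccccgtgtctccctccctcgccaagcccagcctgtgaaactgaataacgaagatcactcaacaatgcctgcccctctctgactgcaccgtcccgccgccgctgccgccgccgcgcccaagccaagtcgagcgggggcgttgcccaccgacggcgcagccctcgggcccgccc
Plet1, chr9:50494275-50494574, plus strand: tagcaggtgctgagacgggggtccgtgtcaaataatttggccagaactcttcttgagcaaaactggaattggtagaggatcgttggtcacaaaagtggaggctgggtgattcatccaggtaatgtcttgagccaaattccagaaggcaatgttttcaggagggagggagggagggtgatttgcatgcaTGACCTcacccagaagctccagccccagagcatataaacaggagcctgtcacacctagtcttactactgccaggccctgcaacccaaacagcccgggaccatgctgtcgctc
Tcf7l1, chr6:72788996-72789295, minus strand: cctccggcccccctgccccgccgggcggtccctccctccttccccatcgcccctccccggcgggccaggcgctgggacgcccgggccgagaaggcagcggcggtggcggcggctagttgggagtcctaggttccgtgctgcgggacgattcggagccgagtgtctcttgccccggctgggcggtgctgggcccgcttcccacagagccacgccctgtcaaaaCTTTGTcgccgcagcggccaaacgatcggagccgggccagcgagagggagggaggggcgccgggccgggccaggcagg

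In the Plet1 window the half-site AGGTCA lay on the strand opposite to the gene, starting 62 bases before the start site, and 16.3% of all 32851 windows in the table held a match to it. The Tcf7l1 window held CTTTGT 28 bases before the start site, as 18.7% of all windows did somewhere. CTTTGA, found in 16.0% of all windows, was in none of the 5, and neither was the direct repeat of the half-site with any 1 base between, which 13 windows (0.0396%) held. The Lgr4, Lgr6 and Lrig1 windows held none of these letters. The windows of Tcf7l1, Lrig1, Lgr6 and Lgr4 had a G and C content of 75.3%, 73.0%, 67.7% and 58.3%, with 34, 35, 24 and 18 CpG dinucleotides, and the Plet1 window had 52.3% and 5. Over all windows the medians were 52.7% and 7. A match is a run of letters in the window and was not measured as a bound site.

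None of the 9 genes passed the test. Each gene was tested with limma over all 15174 genes, at a Benjamini-Hochberg adjusted p of 0.05. Each of the 9 had an adjusted p of 0.9995, where 18 genes passed in all (0.119% of those tested), 17 of them lower in labelled-null skin and 1 higher. That count was 5, 3 and 9 without labelled-null array 1, 2 or 3, 4, 4 and 5 without control array 2, 3 or 4, and 1 with a replicate block, and the 9 follicle genes had 0 past the threshold in all of these fits. Unadjusted p-values of the 9 ran from 0.125 to 0.741, and none was under 0.05, as 3.61% of all tested genes were. The groups overlapped for all 9 genes, whereas 2.45% of all tested genes had groups that did not overlap. Of the 9 genes, 8 lay below control and Plet1 lay above, with a median log2 difference of -0.10, and over all tested genes 50.3% lay below control with a median of -0.00058. Each difference was smaller than the pooled SD between arrays of a group, and every 95% interval held 0.

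Pparg itself was at a log2 value of 8.94 ± 0.13 in control and 9.12 ± 0.10 in labelled-null skin (SD, n = 4 each), and its cluster may read outside the deleted part, so it checks nothing about the labels. Directions are therefore given for the arrays as labelled. Fat genes did differ between the groups. Of 10 listed genes of white adipocytes 8 were tested, all 8 lay below control (median log2 difference -0.87), and 4 fell past the threshold, among them the fatty acid transporter Cd36 (-0.92, limma adjusted p = 0.00585) and the fatty acid binding protein Fabp4 (-1.13, limma adjusted p = 0.0189). Cd36 passed in all 8 fits without 1 array, and Fabp4 in 3 of 8. The array medians ran from 6.93 to 6.96 on the log2 scale, and the precision is set by the 4 arrays of each group. The keratins Krt5 and Krt14 of the basal layer, Krt10 of the suprabasal layers and the dermal collagen Col1a1 were all present, with log2 means of 11.9 to 13.1 in both groups.

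**Figure D1:**
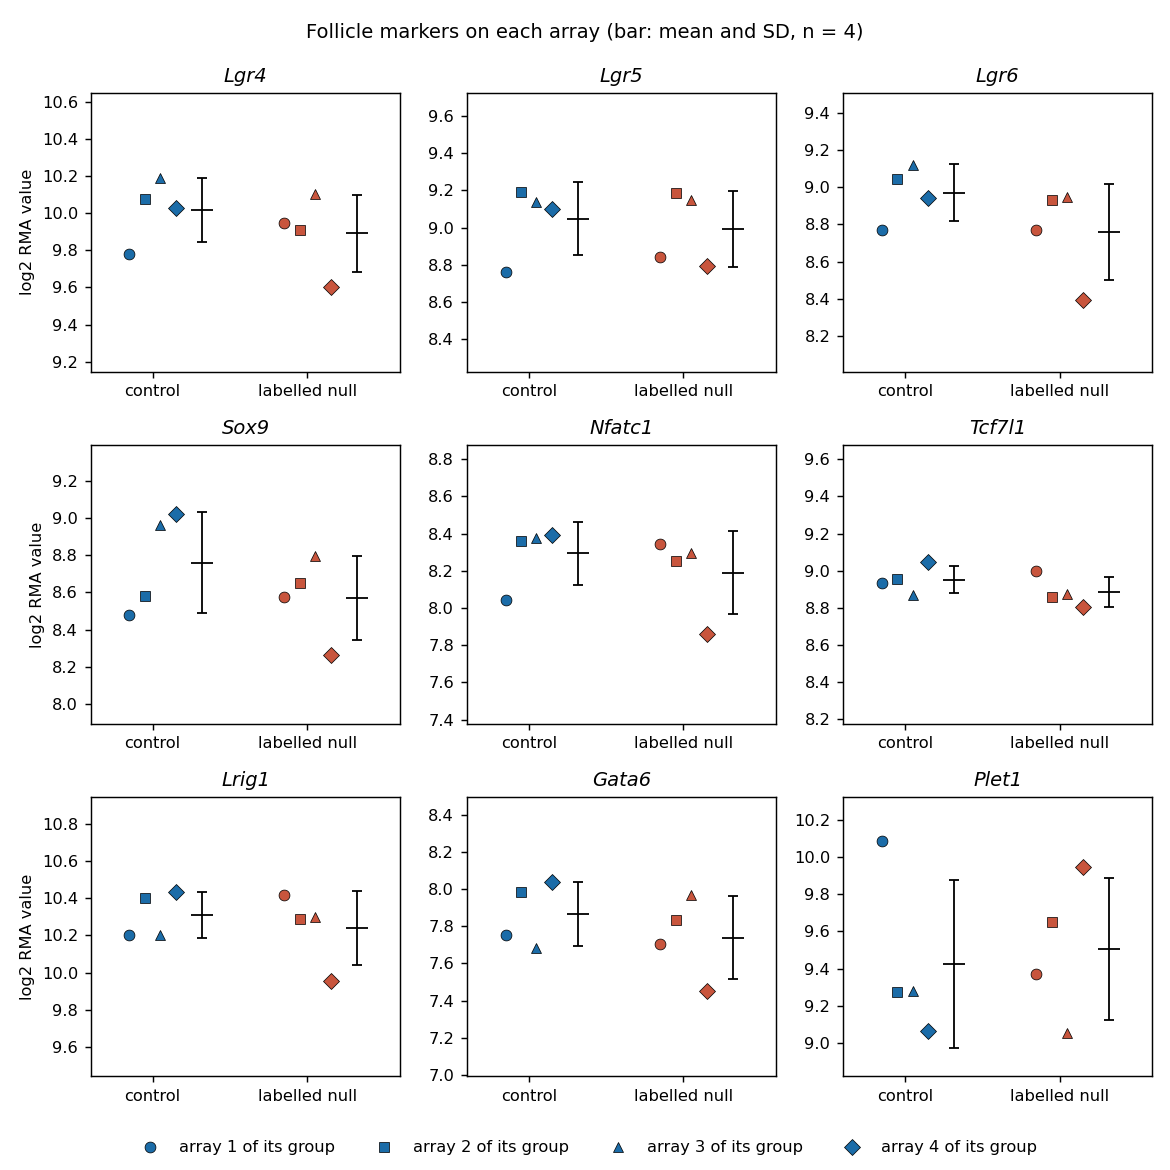
Each panel plots the log2 RMA value of 1 gene (vertical axis, the same span in every panel) on the 4 control arrays and the 4 arrays labelled Pparg null, with the marker shape giving the array number and the bar the mean and SD (n = 4). The groups overlap in every panel; labelled-null array 4 is the lowest point for 7 of the 9 genes and one of the highest for Plet1.

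Among the R-spondin receptors, Lgr6 differed most. Lgr6, which marks stem cells of the isthmus above the bulge, read 8.77, 9.05, 9.12 and 8.94 on control arrays 1 to 4 and 8.77, 8.93, 8.95 and 8.39 on labelled-null arrays 1 to 4 (log2 values, as throughout). Labelled-null array 4 lay below every control array, and the other 3 lay within the control range or, for array 1 (8.767 against 8.770 on control array 1), at its lower edge. The mean was 8.97 ± 0.15 in control and 8.76 ± 0.26 on the labelled-null arrays (SD, n = 4 each), a difference of -0.21 (SE 0.12, 95% interval -0.49 to 0.07). Without labelled-null array 4 the difference was -0.09.

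Lgr4, the most widely expressed of the receptors, read 9.78, 10.07, 10.19 and 10.03 in control and 9.95, 9.91, 10.10 and 9.60 on the labelled-null arrays. The lowest values of the groups were control array 1 and labelled-null array 4, and the difference was -0.13 (95% interval -0.38 to 0.13), or -0.03 without labelled-null array 4. Lgr5, a marker of cycling stem cells in the lower bulge and the germ beneath it, read 8.76, 9.19, 9.14 and 9.10 in control and 8.84, 9.19, 9.15 and 8.79 on the labelled-null arrays. Its values lay in the same range in both groups, with a low control array 1 and low labelled-null arrays 1 and 4. The difference was -0.05 (95% interval -0.32 to 0.21), and without labelled-null array 4 it was 0.01.

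The 4 transcription factors all lay below control by less than the spread between arrays. Sox9, needed for outer root sheath cells and for the first follicle stem cells, read 8.48, 8.58, 8.96 and 9.02 in control and 8.57, 8.65, 8.80 and 8.26 on the labelled-null arrays. Control arrays 1 and 2 read lower than control arrays 3 and 4, and labelled-null arrays 1 to 3 lay between the lowest and the highest control array. The means were 8.76 ± 0.27 and 8.57 ± 0.22 (SD, n = 4 each), a difference of -0.19 (SE 0.14, 95% interval -0.51 to 0.13). It was -0.09 without labelled-null array 4 and -0.28 without control array 1.

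Nfatc1, which holds bulge stem cells quiescent, read 8.04, 8.36, 8.38 and 8.39 in control and 8.35, 8.25, 8.30 and 7.86 on the labelled-null arrays. In each group 1 array stood below the other 3, control array 1 and labelled-null array 4. The difference was -0.10 (95% interval -0.37 to 0.16) and 0.01 without labelled-null array 4. Nfatc1 is also known from endothelium, and of 6 endothelial genes tested 2 lay below control and 4 above, with a mean relative to all arrays of -0.06 on control array 1 and -0.01 on labelled-null array 4.

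Tcf7l1, a TCF factor that represses Wnt targets in follicle stem cells, varied least, at 8.93, 8.96, 8.87 and 9.05 in control and 8.999, 8.86, 8.87 and 8.80 on the labelled-null arrays. Its difference was -0.07 with the narrowest interval of the 9 genes (-0.20 to 0.07). On the linear scale that interval runs from 0.870 to 1.05 times the control level. Gata6, a factor of the upper follicle and the sebaceous duct, read 7.76, 7.99, 7.68 and 8.04 in control and 7.70, 7.84, 7.97 and 7.45 on the labelled-null arrays. Its values overlapped but for labelled-null array 4, and the difference was -0.13 (95% interval -0.39 to 0.14), or -0.03 without that array.

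The surface proteins Lrig1 and Plet1 lay on opposite sides of control, each by less than the spread between arrays. Lrig1, which restrains ERBB receptors and marks stem cells of the junctional zone, read 10.20, 10.40, 10.20 and 10.43 in control and 10.42, 10.29, 10.30 and 9.95 on the labelled-null arrays. Labelled-null array 4 lay below all others, the difference was -0.07 (95% interval -0.30 to 0.16), and without that array it was 0.02. Plet1, a surface protein of the upper isthmus, read 10.09, 9.28, 9.28 and 9.06 in control and 9.37, 9.65, 9.06 and 9.95 on the labelled-null arrays. Here control array 1 and labelled-null array 4 were the highest of their groups, the arrays on which the other 8 genes had a low mean. The means were 9.43 ± 0.45 and 9.51 ± 0.38 (SD, n = 4 each), a difference of 0.08 with the widest interval of the 9 genes (-0.45 to 0.61), which was -0.07 without labelled-null array 4 and 0.30 without control array 1.

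**Figure D2:**
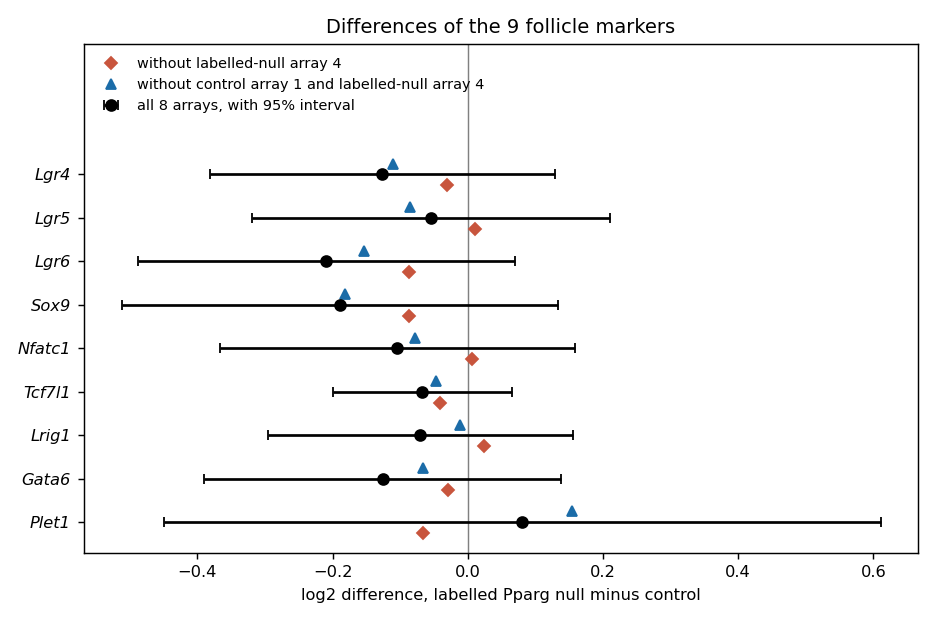
Log2 differences of the 9 genes (horizontal axis, labelled Pparg null minus control), with all 8 arrays and their 95% interval (black), without labelled-null array 4 (diamonds) and with both that array and control array 1 left out (triangles). Every interval holds 0; the difference of Lgr6 runs from -0.21 with all arrays to -0.09 without labelled-null array 4.

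The spread between arrays of a group was larger than the difference between groups for every one of the 9 genes, and the same arrays were low for most of them. Labelled-null array 4 held the lowest value of 7 of the 9 genes, namely Lgr4, Lgr6, Sox9, Nfatc1, Tcf7l1, Lrig1 and Gata6, where 20.3% of all tested genes had their lowest value on that array. Lgr5 was lowest on control array 1, and Plet1 on labelled-null array 3. The mean of the 8 genes other than Plet1, relative to their own means over all arrays, was -0.33 on labelled-null array 4 and -0.13 on control array 1, and lay between -0.02 and 0.16 on the other 6 arrays. Plet1 was set apart here after its values were seen, and stood 0.48 and 0.62 above its own mean on those same arrays. The SD over the 8 arrays ran from 0.08 (Tcf7l1) to 0.39 (Plet1), and for 8 of the 9 genes it was above the median of all tested genes (0.10).

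Lists for other compartments of the skin were compared on the same arrays, as a description. The first 4 lists are hair shaft and inner root sheath, dermal papilla, suprabasal epidermis and basal epidermis. On control array 1 only the dermal papilla list of these 4 left the range of the arrays other than this and labelled-null array 4. The hair shaft and inner root sheath list pools keratins, Tchh and transcription factors, with 19 of 22 genes tested. Its mean relative to all arrays was -0.30 on labelled-null array 4 and -0.09 on control array 1, and -0.14 to 0.31 for the remaining 6. None of the tested hair shaft keratins (Krt31, Krt32, Krt33a, Krt33b, Krt34, Krt35) was lowest on labelled-null array 4. The inner root sheath keratins Krt25, Krt28, Krt71 and Krt73 were, and Krt27, Krt72 and Tchh were not. Of the transcription factors, Hoxc13 and Msx2 were lowest there, and Gata3, Foxn1, Msx1 and Dlx3 were not. Of the 19 tested, 18 lay below control both with all arrays and without labelled-null array 4, and 0 passed the limma threshold. At an unadjusted limma p under 0.05 there were 3, Krt71, Krt27 and the dim Krt31 (5.97 in control, 5.73 in labelled-null skin). The inner root sheath keratin Krt71 differed most, by -0.96 (limma adjusted p = 0.821). The 11 genes of the dermal papilla, the mesenchyme that instructs the follicle, were at -0.20 on labelled-null array 4 and -0.14 on control array 1. They were at -0.03 to 0.12 on the others. The 7 tested suprabasal epidermis genes were at 0.26 on labelled-null array 4, 0.00 on control array 1 and -0.19 to 0.05 on the rest, and the 8 basal epidermis genes stayed between -0.06 and 0.08 on all arrays. The dermal fibroblast, skeletal muscle and Schwann cell and melanocyte lists were also low on labelled-null array 4, at -0.13, -0.24 and -0.12. On control array 1 they were at -0.03, -0.13 and 0.003, and on the other arrays they reached down to -0.01, -0.15 and -0.04. The endothelium list was at -0.01 on labelled-null array 4 and -0.06 on control array 1. The part of these compartments in the follicle values was not tested. Without labelled-null array 4, 6 of the 9 follicle genes lay below control, with a median of -0.03. With both control array 1 and labelled-null array 4 left out, the same 8 of the 9 follicle genes lay below control, with a median of -0.08, and in both of these fits 0 passed the limma threshold.

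**Figure D3:**
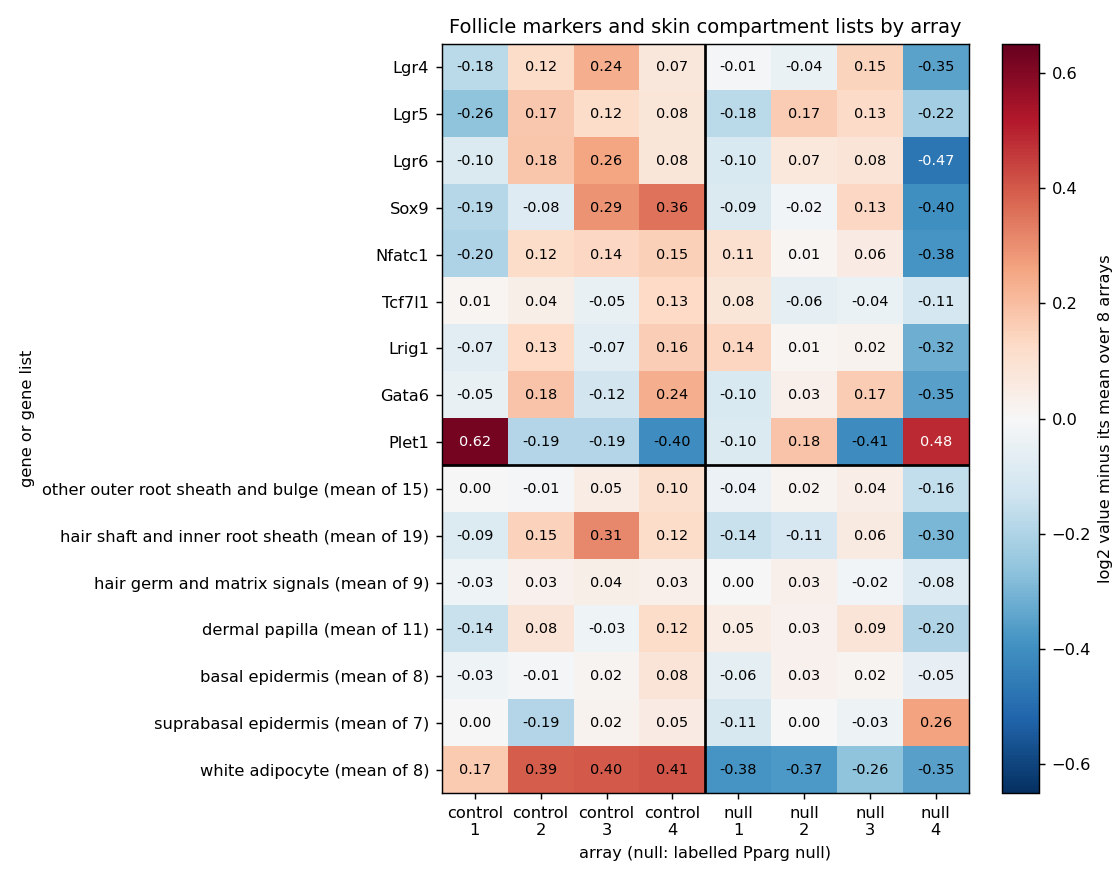
Rows are the 9 genes (above the line) and the means of 7 gene lists (below it), columns are the 8 arrays, and colour and number give the log2 value minus its mean over the 8 arrays. Labelled-null array 4 is low in 8 of the 9 genes, in the pooled hair shaft and inner root sheath list (-0.30) and in the dermal papilla list (-0.20). It is high in Plet1 (0.48) and the suprabasal list (0.26), while the white adipocyte list separates the groups.

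A list of 15 other markers of outer root sheath or bulge, all tested, had 0 members past the limma threshold in either direction (0 also at an unadjusted p under 0.05), 13 below control and 2 above, and a median of -0.04. The 4 with the smallest p were Krt79, a keratin of the cells that open the follicle canal, Tbx1, a transcription factor of the bulge, the companion layer keratin Krt75 and the Hedgehog target Gli1. Krt79 was at 10.004 ± 0.27 in control and 9.64 ± 0.43 on the labelled-null arrays (SD, n = 4 each), and its value of 9.02 on labelled-null array 4 compares with 9.69 to 10.31 on all the other arrays. Tbx1, Krt75 and Gli1 differed by -0.14, -0.17 and -0.14. The 2 genes above control were the keratin Krt19 at 0.22 and the surface antigen Cd34 at 0.05. Without labelled-null array 4, 10 of the 15 lay below control.

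The R-spondin and Wnt receptor list, which holds the ligands and partners of the Lgr receptors, had 15 of 16 genes tested, 9 below control and 6 above, 0 past the limma threshold and 1 at an unadjusted p under 0.05. That gene was the ligand Rspo3, at 8.65, 8.66, 8.73 and 8.70 in control and 8.82, 8.90, 8.72 and 8.85 on the labelled-null arrays. Of these only labelled-null array 3 lay inside the control range, and the difference was 0.13 (SE 0.05, limma adjusted p = 0.9995). The ligands Rspo1 and Rspo2 lay the other way, at -0.19 and -0.13, each with its lowest value on labelled-null array 4. The Wnt co-receptor Lrp5 differed by -0.06, and the ubiquitin ligases Rnf43 and Znrf3, which remove Wnt receptors and are held back by R-spondin bound to its receptor, by -0.06 and -0.03.

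The list of ERBB receptors and ligands, the pathway that Lrig1 restrains, had 12 of 13 genes tested, 5 below control and 7 above, with 0 past the limma threshold and 0 at an unadjusted p under 0.05. The ligands Btc and Ereg differed by 0.33 and 0.37, and both rested on labelled-null array 4. Ereg read 8.24 there and 6.38 to 6.985 on the other 7 arrays, and Btc read 9.95 there and 8.24 to 8.995 on the others. The receptor Erbb2 differed by -0.08 and the feedback inhibitor Errfi1 by 0.08.

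Relatives of the transcription factors lay on both sides of control. Of 11 tested relatives of Sox9, Nfatc1 and Gata6, 4 lay below control and 7 above, with a median of 0.03, 0 past the limma threshold and 1 at an unadjusted p under 0.05. That gene was Gata1, a factor of red cells and mast cells, at a difference of 0.20 (95% interval 0.01 to 0.39, limma adjusted p = 0.9995), and Gata2 differed by 0.14.

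Sebaceous gland cells arise from progenitors near the junctional zone that Lrig1 and Gata6 mark. The sebocyte list had 9 of 12 genes tested, with 6 below control and 3 above, and 1 fell past the limma threshold, the glutathione transferase Mgst1 (-0.53, limma adjusted p = 0.0196; past the threshold in 3 of 8 fits without 1 array). At an unadjusted p under 0.05 there were 5 of the 9, with 3 below control (Mgst1, Mc5r and the lipid droplet protein Plin2) and 2 above (Cidea, another lipid droplet protein, and Pparg). These counts include Pparg, the gene that the labels call null. Its cluster may read outside the deleted part, so its value says nothing about sebocytes. The melanocortin receptor Mc5r differed by -0.48 (limma adjusted p = 0.545) and Cidea by 0.24 (limma adjusted p = 0.582), both with groups that did not overlap. Lrig1 and Gata6 differed by -0.07 and -0.13 with overlapping groups. Of 9 hair germ and matrix signals 7 lay below control and 0 passed the limma threshold (0 also at an unadjusted p under 0.05); Shh, the signal that drives follicle downgrowth, differed by -0.16.

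For the 3 members with the largest SD over the arrays, the tested genes with the closest profile were named, with predicted genes and clones left out. Closeness was the root-mean-square difference between log2 profiles, each centred on its mean over the 8 arrays. Closest to Plet1 were Coch (0.116), Klk10 (0.142) and Tmem89 (0.145), which stood 0.68, 0.40 and 0.47 above their means on control array 1 and 0.66, 0.56 and 0.27 above them on labelled-null array 4. Closest to Sox9 were Ifi207 (0.063), Slc1a1 (0.078) and Ogn (0.079). Closest to Lgr6 were Slc16a7 (0.061), Chga (0.066) and Bmp4 (0.067), which stood at -0.51, -0.36 and -0.57 on labelled-null array 4. These likenesses rest on 8 arrays of whole skin and describe shared highs and lows only.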

How the data were processed

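Biotin-labelled cDNA from 100 ng of total RNA per sample was hybridised to 1 array each. The deposited log2 values are RMA values that the authors computed in Affymetrix's Expression Console software, as the submitters' processing notes list; for its version and the annotation build, the entry is "not given in the sources used here". RMA quantile-normalizes the arrays, which removes any shift common to all transcripts.

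Groups came from the sample titles. Of 35556 transcript clusters, 21789 had exactly 1 gene symbol in the platform annotation, and 21698 of these took the current RefSeq symbol of their gene ID. Clusters above the 30th percentile of their array on at least 4 of 8 arrays entered the test, and each gene was represented by its brightest cluster. Differences were fitted without covariates with limma 3.58.1 (R 4.3.3; lmFit and eBayes, two-sided, Benjamini-Hochberg over all tested genes). Simulated data for this comparison (15174 genes varying independently) held 100 genes changed by 0.5 and 100 changed by 1 on the log2 scale. Of these the step recovered 83.5% and 97.8%, with 5.75% false calls. In the data themselves 18 genes passed, so a smaller unadjusted p was needed to pass there. The simulated shares therefore do not give the chance that such a change in a follicle marker would pass.

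The members and the gene lists were chosen with earlier results of these data known, so lists are given by counts and medians, without a test. All members are named, with up to 4 genes of the closest lists and up to 2 of the others by smallest unadjusted p; other genes named, among them Krt19, Cd34, Rnf43, Znrf3 and the compartment keratins, were chosen after their values were seen or as background. Alternatives were other filters, scalings, priors, array weights, averaged clusters, a replicate block and fits without single arrays. The pairing check correlated the deviations of same-numbered arrays from their group means.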

Additional observations from a re-analysis of the deposited data

Results flagged for a closer look

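Among 90 sets of 4 values (1 gene in 1 group), 5 held a single value far from the other 3; chance gives about 4.5, or 1 in 20. Among the follicle markers this was Nfatc1 on control array 1, at 8.04, with the other control values at 8.36 to 8.39. The others were the hair germ signal Shh on labelled-null array 4 (7.84 against 8.13 to 8.18), the dermal matrix gene Dpt on control array 4 (11.85 against 11.76 to 11.77), the endothelial gene Vwf on control array 2 (8.003 against 7.83 to 7.86) and the Schwann cell gene S100b on labelled-null array 1 (5.84 against 5.72 on the other arrays of its group).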

How the results depend on the processing

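No follicle marker passed the limma threshold in any of the 17 other fits; the smallest unadjusted p of any member was 0.0616 (Lgr6). Of 153 member differences under other settings, 148 kept their direction and 5 changed sign, all without a single array. The other filters, the other prior, averaged clusters and the replicate block left every member's difference as in the main fit. Their values could not change sign, as each member has 1 cluster, so the 148 overstates how steady the directions were. Leaving out 1 array gave -0.15 to 0.011 for Lgr5, -0.13 to 0.024 for Lrig1, -0.19 to 0.0054 for Nfatc1 and -0.067 to 0.30 for Plet1; each crossed 0 without labelled-null array 4, and Plet1 also without control array 4 (-0.04). The count below control was 6 without labelled-null array 4 and 9 without control array 4. The median of the members ran from -0.16 (without control array 1) to -0.03 (without labelled-null array 4). The count of genes past the threshold over all genes was 18, and 3 to 15 when 1 array was left out: 5, 3 and 9 without labelled-null arrays 1, 2 and 3 and 4, 4 and 5 without control arrays 2, 3 and 4. Replicate numbers gave no pairing: deviations from the group means correlated at r = -0.31, 0.20, 0.05 and -0.03 for numbers 1 to 4, and no control array correlated best with its own number. The fit with a replicate block left 1 gene past the threshold and 0 of the members.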
